A study of Mus musculus with 24 samples.

Results

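The genes described here are integrin chains, laminin chains, collagens and 5 further matrix proteins, taken by symbol from the expression table of polarized mpkCCD cells, an immortalized mouse line from the kidney's cortical collecting duct. Membership was set by name alone: symbols starting with Itga, Itgb followed by a digit, Lama, Lamb or Lamc followed by a digit, Col followed by a digit, and Fn1, Thbs1, Hspg2, Sparc and Fbln2. This gave 41 gene names in 44 of the 12224 rows, namely 7 integrin alpha chains, 8 integrin beta chains, 6 laminin names, 8 basement membrane collagens, 7 other collagens and the 5 matrix proteins. Lamb3, Lama3 and Col27a1 each had 2 rows with different transcript lengths, and how reads were divided between such rows is not given in the sources used here. 3 further rows whose joined names hold a member's symbol beside another gene were left out.

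Poly(A) RNA of 24 libraries was sequenced in 4 groups of 6. Gpr39 knockout (KO) cells and unedited wild-type (WT) cells were each given either the agonist (1 µM cpd1324, a compound acting on the zinc-sensing receptor GPR39) with 10 µM ZnCl2, or vehicle (0.1% DMSO) with the same 10 µM ZnCl2, on the basolateral side for 2 h. All groups had grown on porous inserts for 9 days without dDAVP, a vasopressin analogue, and had spent 24 h in simple medium. The number of KO clones, the edited stretch of Gpr39 and whether replicates were separate cultures are not given, so p-values measure the spread between these libraries, which may be technical.

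Levels are given as scaled units: the deposited signal per gene length times one constant for all libraries. Because they are per length, levels of different genes are set side by side below. Such comparisons rest on the deposited gene lengths, whose unit is not stated and which were not checked. Groups are described by the lowest, median and highest of 6 libraries, and a gene is called changed where limma's adjusted p over all 11557 rows tested was below 0.05. Gpr39 itself stood at 8.20, 9.22 and 10.6 units in KO agonist libraries, 8.52, 9.25 and 10.4 in KO vehicle, 27.1, 29.2 and 31.1 in WT agonist and 20.3, 20.9 and 24.5 in WT vehicle libraries. No KO library reached the lowest WT value, but the transcript was not at 0 in KO cells. Libraries held 29.8 to 51.9 M recovered reads. KO vehicle replicate 6 stood apart, with a median correlation to its own group of 0.9798 against 0.9929 or more in the other 23 libraries, and it was the lowest of its group in 18 of the 37 members tested. KO agonist replicate 2 was the lowest of its group in 16 of the 37.

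As a check of the labelled cell type, 14 of 17 markers of collecting duct epithelium and its principal cells were in the table, among them Aqp2, Scnn1a and Cdh1. Their summed level was 5454 to 6491 units in KO agonist libraries, 5748 to 6482 in KO vehicle, 10080 to 13040 in WT agonist and 5659 to 6434 in WT vehicle libraries. The keratin gene Krt18 carried much of that sum, with a median of 6287 units in WT agonist and 2222 in WT vehicle libraries. With agonist in WT cells 4 of the 14 rose (Krt18, Krt19, Epcam and Cdh1) and 6 fell, among them Avpr2 (log2 change -0.94, adjusted p = 6.88e-07, limma), Scnn1g (-1.35, adjusted p = 9.12e-07) and Aqp2 (-0.54, adjusted p = 0.00865), and their median log2 change was -0.15. Of 18 fibroblast and mesangial markers, Col1a1 alone was in the table, at 3.27 units or less in every library. Of 10 endothelial markers 2 were listed (Plvap and Eng), summing to 4.71 units or less. Immune markers were 4 of 11, summing to 53.1 to 59.9 units in KO agonist, 49.9 to 70.8 in KO vehicle, 68.7 to 83.5 in WT agonist and 62.4 to 68.5 in WT vehicle libraries. Of 10 intercalated cell markers 4 were listed, summing to 66.6 to 99.8 units over all libraries. Of 9 proximal tubule markers only Lrp2 was listed, with medians of 6.32 units in KO agonist, 5.71 in KO vehicle, 12.4 in WT agonist and 8.36 in WT vehicle libraries, and it rose with agonist in WT cells (log2 change 0.54, adjusted p = 0.000866, limma). Of 7 podocyte markers 4 were listed (Podxl, Synpo and the members Col4a3 and Col4a4), summing to 153 to 210.2 units. The part of these marker levels in the results was not tested. In such bulk RNA, fewer cells of a type and less RNA per cell cannot be told apart.

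Integrins are paired alpha and beta chains in the cell membrane that hold a cell to its matrix and signal from it. Epithelia rest on a basement membrane woven from laminin trimers, type IV collagen and perlecan, and the chain pairing sets which matrix protein an integrin binds. In the collecting duct, laminin-binding integrins anchor the basal side, while integrins with the alpha v chain bind fibronectin and latent transforming growth factor beta.

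RefSeq promoters (build GRCm38.p6) were in hand for 28 of the 41 names, in 32 windows of the 250 bases before a transcript start. Thbs1, Fn1 and Itga6 were among the names without a window, so the motif counts do not cover them. Those of Itgb6, Itgav and Itgb1 are shown because the pair Itgav and Itgb6 had the largest agonist changes among integrins in WT cells, and Itgb1 is the beta chain shared by most alpha chains. Each is the last 150 bases before the start, read 5′ to 3′ on the gene's strand, with motif matches on either strand in capitals: Itgb6 at chr2:60722604-60722753 (minus strand), its other start at chr2:60673694-60673843 (minus strand), Itgav at chr2:83724247-83724396 (plus strand) and Itgb1 at chr8:128685504-128685653 (plus strand).
Itgb6: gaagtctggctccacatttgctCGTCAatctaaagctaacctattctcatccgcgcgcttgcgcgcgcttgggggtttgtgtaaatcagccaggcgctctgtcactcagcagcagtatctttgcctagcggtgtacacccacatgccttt
Itgb6, other start: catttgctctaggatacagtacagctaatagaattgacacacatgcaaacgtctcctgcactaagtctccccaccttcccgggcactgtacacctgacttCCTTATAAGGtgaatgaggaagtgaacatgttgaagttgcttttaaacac
Itgav: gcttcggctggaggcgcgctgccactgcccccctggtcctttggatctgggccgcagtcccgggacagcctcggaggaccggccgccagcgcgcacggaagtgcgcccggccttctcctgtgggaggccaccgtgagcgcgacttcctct
Itgb1: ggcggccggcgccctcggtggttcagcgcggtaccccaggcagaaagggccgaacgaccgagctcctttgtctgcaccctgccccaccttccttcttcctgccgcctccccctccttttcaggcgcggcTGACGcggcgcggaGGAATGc
In Itgb6 the capitals mark a cyclic AMP response element (CRE) core, TGACG, on the opposite strand, and at its other start a serum response factor CArG box. In Itgb1 they mark TGACG and the TEAD motif GGAATG. Both strands were searched. The core TGACG was in 6 of the 32 member windows (Col11a2, Col4a5, Col7a1, Itgb1, Itgb6 and Lama5) and in 17.8% of all 32851 RefSeq windows. GGAATG was in 4 (Col18a1, Col20a1, Itgb1 and Lamb3) and in 12.6% of all windows, and the CArG box in 1 member window and 1.47% of all. The AP-1 motif TGANTCA was in 0 of 32 member windows and 6.75% of all windows, and the full CRE TGACGTCA, which contains that core, in 0 and 1.55%. The EGR motif GCGGGGGCG was in 2 (Col8a1 and Lamb1) and in 2.57% of all windows, and an NF-kB motif (GGG, any 5 bases, CC) in 22 and 45.8%. Such matches describe letters only.

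At baseline, abundant members in WT vehicle cells included Itgb1, with a median of 541 units, Thbs1 with 436 and Col18a1 with 418. Lamb1 (250.4 units), Itgb5 (220.0), Lama5 (170.5) and Itga3 (146) had lower levels. The interstitial collagen gene Col1a1 had a median of 1.20 units in WT vehicle libraries. Filtering on a mean of at least 1 unit over all libraries kept 37 of the 44 rows. Itgb2, Itgb3, Itgb7, Col9a3, Col4a6 and the shorter rows of Lama3 and Col27a1 fell below it. 6 rows that were kept had a group median under 1 unit: Col1a1, Itgb8, Col8a2, Col7a1, the shorter Lamb3 row and Col27a1 (length 4810). Col27a1 (length 4810) had group means above 1 unit in WT cells only, and the shorter Lamb3 row in KO cells only. Their genotype differences below therefore concern rows kept through the cells where they were high. Col27a1 (length 4810) was not tested with equal totals.

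The agonist raised most of these genes in WT cells within 2 h. Of 37 rows tested, 24 rose and 2 fell, while over all genes 57.2% were called, 28.6% higher and 28.6% lower. The median log2 change of the members was 0.44, against -0.01 over all genes tested. Changes of at least 1.5-fold upward were called in 14 members and in 7.54% of all genes, and of at least 2-fold in 9 members and in 3.6% of all genes. No member fell by 1.5-fold or more (0 members and 5.43% of all genes). All agonist libraries lay above all vehicle libraries in 15 members (19.8% of all genes) and below them in 2 (17.7%). By group, 6 of 7 integrin alpha chains, 3 of 5 beta chains, 5 of 7 laminin rows, 3 of 7 basement membrane collagens, 2 of 6 other collagens and 5 of 5 other matrix genes rose. The deposited scaling leaves WT agonist totals 1.18 times those of WT vehicle. With totals made equal, the all-gene median shifted to -0.24 in WT cells, and 1432 of 11568 genes were called higher and 6948 lower. Of the members, 16 were then called higher and 4 lower, and 0 of the 24 that rose changed sign. With quantile scaling, 25 were called higher and 3 lower of 38 rows then tested, against 2684 higher and 4135 lower of all 11558 genes.

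**Figure D1:**
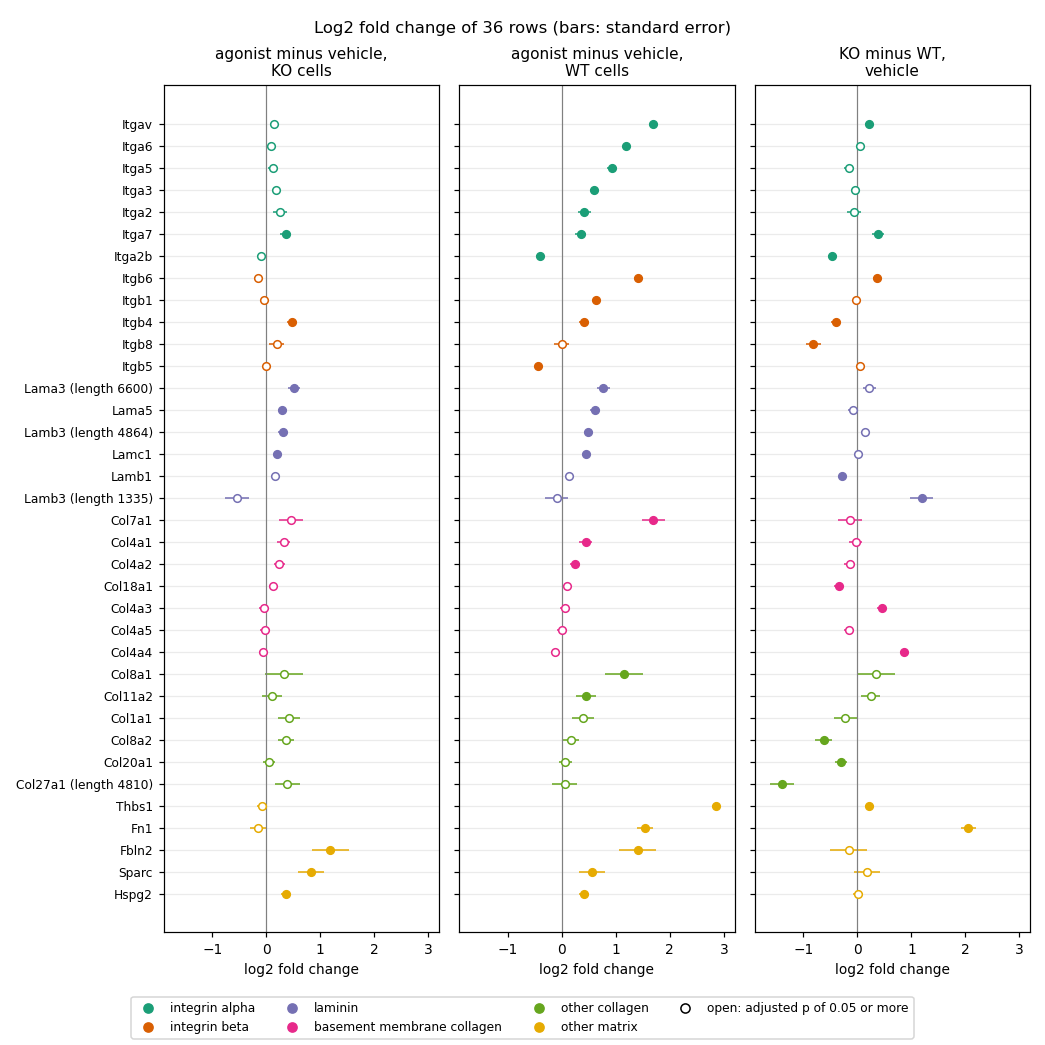
Log2 fold change (x axis) of 36 of the 37 rows tested, grouped by role, for agonist minus vehicle in KO cells (left), agonist minus vehicle in WT cells (middle) and KO minus WT under vehicle (right). Points are estimates, bars standard errors, and filled points have an adjusted p below 0.05. Most integrin and laminin points lie right of 0 in WT cells, with Thbs1 farthest at 2.85, while in KO cells the filled points are 9.

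Alpha v (Itgav) and beta 6 (Itgb6), chains of one epithelial receptor that activates latent transforming growth factor beta, moved most among integrins. Itgav had 181, 208 and 244 units in WT agonist libraries, against 60.2, 63.8 and 68.7 in WT vehicle libraries. Every agonist library lay above every vehicle library, and the log2 change was 1.70 ± 0.07 (SE, adjusted p = 9e-17, limma). Itgb6 had 168, 195 and 241 units in WT agonist libraries, against 64.3, 71.7 and 89.0 in WT vehicle libraries. These groups did not overlap either (log2 change 1.42 ± 0.08, adjusted p = 3.16e-14, limma).

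The laminin receptor chains Itga6 and Itga3 and the fibronectin receptor chain Itga5 also rose. Itga6 had 127, 143 and 163 units in WT agonist libraries, against 56.4, 63.3 and 65.9 in WT vehicle libraries (log2 change 1.18 ± 0.05, adjusted p = 5.83e-16, limma). Itga5 had 27.0, 29.4 and 33.8 units in WT agonist libraries, against 13.3, 14.5 and 19.4 in WT vehicle libraries (0.94 ± 0.09, adjusted p = 3.5e-09). In both genes the groups were apart. Itga3 had 209, 219 and 256 units in WT agonist libraries, against 133, 146 and 174 in WT vehicle libraries, again without overlap (0.59 ± 0.07, adjusted p = 5.77e-08; 0.35 with equal totals and 0.37 with quantile scaling). Their shared partner Itgb1 had 797, 834 and 919 units in WT agonist libraries, against 524, 541 and 580.0 in WT vehicle libraries. It was the most abundant integrin chain in both groups, and its groups were apart (log2 change 0.64 ± 0.04, adjusted p = 1.17e-12, limma). The size of that rise depended on the scaling, at 0.40 with equal totals and 0.21 with quantile scaling, both still called.

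Smaller increases were called for Itga2, a collagen receptor chain (log2 change 0.42, adjusted p = 0.00717, limma), Itga7, a laminin receptor chain best known in muscle (0.35, adjusted p = 0.00623), and Itgb4, the beta 4 chain of hemidesmosomes (0.41, adjusted p = 0.000507). Itga7 had 20.9, 21.9 and 26.4 units in WT agonist libraries, against 15.3, 17.6 and 21.1 in WT vehicle libraries. Itgb4 had 84.6, 103 and 122 units in WT agonist libraries, against 65.4, 74.5 and 95.5 in WT vehicle libraries. Both pairs of groups overlapped. With equal totals none of these 3 was called (log2 changes of 0.22 for Itga2, 0.11 for Itga7 and 0.17 for Itgb4, adjusted p = 0.133, 0.359 and 0.15, limma). With quantile scaling all 3 were still called, at 0.52 for Itga2, 0.38 for Itga7 and 0.26 for Itgb4. The 2 members that fell were both integrin chains. Itgb5, another partner of alpha v, had 149.9, 163 and 178 units in WT agonist libraries, against 216, 220.0 and 236 in WT vehicle libraries. All agonist libraries lay below all vehicle libraries (log2 change -0.44 ± 0.05, adjusted p = 9.77e-08, limma; -0.68 with equal totals). Itga2b, the platelet integrin alpha chain, had 5.91, 6.58 and 7.03 units in WT agonist libraries, against 7.34, 8.93 and 10.2 in WT vehicle libraries, without overlap (-0.41 ± 0.08, adjusted p = 6.38e-05; -0.63 with equal totals). Its beta partner Itgb3 was under the filter. Itgb8 was not called (log2 change 0.00, adjusted p = 0.996).

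Laminins rose through several chains. Lama3 (length 6600), an alpha chain of epithelial laminin, had 22.1, 23.5 and 29.7 units in WT agonist libraries, against 12.1, 13.8 and 21.7 in WT vehicle libraries (log2 change 0.77 ± 0.12, adjusted p = 4.8e-06, limma). Its highest vehicle library, replicate 1, came close to the lowest agonist library. The longer Lamb3 row had 127, 129.9 and 148 units in WT agonist libraries, against 84.9, 92.9 and 114 in WT vehicle libraries (0.49 ± 0.08, adjusted p = 4.74e-06). Lama5 had 195, 265 and 306 units in WT agonist libraries, against 145, 170.5 and 183 in WT vehicle libraries. Lamc1 had 131, 142 and 158 units in WT agonist libraries, against 94.4, 106 and 110.4 in WT vehicle libraries. Lama5 and Lamc1, chains of the laminin common to mature epithelial basement membranes, rose by log2 0.61 ± 0.09 (adjusted p = 1.81e-06, limma) and 0.45 ± 0.06 (adjusted p = 3.97e-07), with no overlap in either. With equal totals the rises were smaller and still called, at 0.25 for the longer Lamb3 row, 0.37 for Lama5 and 0.21 for Lamc1, and with quantile scaling they were 0.32, 0.38 and 0.25. Lamb1, a beta chain that can join Lamc1, changed by 0.13 and was not called (adjusted p = 0.0628), nor was the shorter Lamb3 row (-0.10, adjusted p = 0.73).

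Collagens moved less as a group. Col7a1, which forms the anchoring fibrils under epithelia, was a low-level gene with 2.55, 4.07 and 7.71 units in WT agonist libraries, against 0.625, 0.904 and 1.55 in WT vehicle libraries. The groups did not overlap (log2 change 1.69 ± 0.22, adjusted p = 2.85e-07, limma), although the vehicle libraries held 17 to 41 reads of it. Among type IV collagens, the ubiquitous chains Col4a1 (0.44, adjusted p = 0.00257) and Col4a2 (0.24, adjusted p = 0.0387) rose, while Col4a3 (0.05), Col4a4 (-0.13) and Col4a5 (0.00), which form a separate network, did not pass. These calls depended on the scaling: with equal totals Col4a1 (0.20, adjusted p = 0.149, limma) and Col4a2 (0.01, adjusted p = 0.961) were not called, whereas Col4a4 (-0.36, adjusted p = 0.000175) and Col4a5 (-0.24, adjusted p = 0.0129) were called lower. With quantile scaling Col4a2 was not called either (0.21, adjusted p = 0.0639). Col18a1, the parent of endostatin and the most abundant collagen gene here, changed by 0.09 (adjusted p = 0.378), but was called lower with quantile scaling (-0.23, adjusted p = 0.02). Of the remaining collagens, Col8a1 had 2.27, 5.99 and 7.62 units in WT agonist libraries, against 0.630, 1.87 and 4.53 in WT vehicle libraries. Those groups overlapped (log2 change 1.15 ± 0.35, adjusted p = 0.0071, limma). Col11a2 rose by 0.45 (adjusted p = 0.0376), a call lost with equal totals (0.26, adjusted p = 0.219). Col1a1 (0.39, though called at 0.48 with quantile scaling, adjusted p = 0.0433), Col8a2 (0.17), Col20a1 (0.07) and Col27a1 (length 4810, 0.05) were not called.

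The largest change of any member was in Thbs1, encoding thrombospondin, a matricellular protein that binds integrins and activates latent transforming growth factor beta. Thbs1 had 2728, 3140.0 and 3752 units in WT agonist libraries, against 380.1, 436 and 457 in WT vehicle libraries. The lowest agonist library was far above the highest vehicle library (log2 change 2.85 ± 0.08, 7.23-fold, adjusted p = 1.22e-19, limma). Fibronectin (Fn1) had 111, 118 and 146 units in WT agonist libraries, against 31.3, 38.9 and 65.6 in WT vehicle libraries, also without overlap (1.54 ± 0.15, adjusted p = 1.55e-09). Perlecan (Hspg2), the main proteoglycan of basement membranes, had 62.5, 76.2 and 84.4 units in WT agonist libraries, against 45.9, 57.7 and 62.0 in WT vehicle libraries (0.42 ± 0.09, adjusted p = 0.000407). Its groups were apart by a narrow gap, and it was not called with equal totals (0.18, adjusted p = 0.118).

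Fibulin-2 (Fbln2), which bridges basement membrane proteins, and the collagen-binding Sparc varied widely between libraries of a group. Fbln2 had 34.6, 83.5 and 121 units in WT agonist libraries, against 9.86, 28.5 and 74.3 in WT vehicle libraries (log2 change 1.40 ± 0.34, adjusted p = 0.00115, limma). Sparc had 11.7, 22.4 and 28.8 units in WT agonist libraries, against 6.50, 15.1 and 27.5 in WT vehicle libraries (0.56 ± 0.24, adjusted p = 0.0485). In both genes the groups overlapped, and the Sparc call was lost when any 1 of 16 libraries was left out and with equal totals (0.32, adjusted p = 0.239, limma). WT vehicle replicate 1 was the highest of its group in 6 of the 9 members named in the next comparison, Fbln2, Sparc and Lama3 among them. Without it the changes in WT cells were 1.70 for Fbln2 (adjusted p = 4.86e-05, limma) and 0.75 for Sparc (adjusted p = 0.00486).

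In KO cells the same treatment changed fewer of these genes. 9 of the 37 rows rose and 0 fell, while 9.3% of all genes were called, 4.66% higher and 4.64% lower. The median log2 change of the members was 0.17, against -0.01 over all genes. Rises of 1.5-fold or more were called in 2 members and 0.424% of all genes, and falls of that size in 0 members and 0.277%. The groups were apart upward in 4 members (2.55% of all genes) and downward in 0 (1.97%). All 9 also rose in WT cells, where 2.23% of all genes were called higher in both genotypes. They were 4 laminin rows (Lama3, Lama5, Lamb3 and Lamc1), Itga7, Itgb4, Fbln2, Sparc and Hspg2, with no collagen among them. Col4a1 was not called (log2 change 0.32, adjusted p = 0.0809, limma), although its KO groups were apart upward. At an unadjusted p below 0.05, limma had 15 members higher and 1 lower, the shorter Lamb3 row. The share of all genes at that looser threshold is not given here, so whether these counts are unusual cannot be read from them. At the adjusted threshold, voom on recovered reads called 0 lower as well.

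Fbln2 had 27.9, 63.6 and 68.0 units in KO agonist libraries, against 21.3, 23.9 and 27.4 in KO vehicle libraries. The groups touched without overlapping, since KO agonist replicate 2 was far below the other 5 (log2 change 1.18 ± 0.34, adjusted p = 0.0346, limma). Sparc had 21.8, 28.0 and 35.0 units in KO agonist libraries, against 13.4, 15.7 and 17.3 in KO vehicle libraries. Those groups were apart as well (0.82 ± 0.24, adjusted p = 0.0346). Lama3 (length 6600) had 18.2, 25.4 and 28.5 units in KO agonist libraries, against 15.3, 16.6 and 20.7 in KO vehicle libraries, where KO agonist replicate 2 was the lowest and KO vehicle replicate 6 the highest (0.51 ± 0.12, adjusted p = 0.0146). Itgb4 had 64.7, 82.8 and 88.2 units in KO agonist libraries, against 48.6, 59.8 and 62.0 in KO vehicle libraries, with no overlap (0.47 ± 0.09, adjusted p = 0.00856, limma).

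The other KO changes were smaller. Hspg2 had 59.0, 73.3 and 89.1 units in KO agonist libraries, against 49.2, 57.5 and 64.0 in KO vehicle libraries (log2 change 0.37 ± 0.09, adjusted p = 0.0206, limma). Itga7 had 27.0, 30.4 and 32.8 units in KO agonist libraries, against 15.7, 25.1 and 27.4 in KO vehicle libraries (0.36 ± 0.10, adjusted p = 0.0357). In both genes the groups overlapped, as in Lamb3, Lama5 and Lamc1. The longer Lamb3 row had 114, 129.7 and 139 units in KO agonist libraries, against 79.4, 109 and 114 in KO vehicle libraries (0.30 ± 0.08, adjusted p = 0.0207). Lama5 had 169, 196 and 216 units in KO agonist libraries, against 132, 161 and 179 in KO vehicle libraries (0.30 ± 0.09, adjusted p = 0.0357). Lamc1 had 111, 122 and 136 units in KO agonist libraries, against 93.7, 106 and 116 in KO vehicle libraries (0.20 ± 0.06, adjusted p = 0.035).

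**Figure D2:**
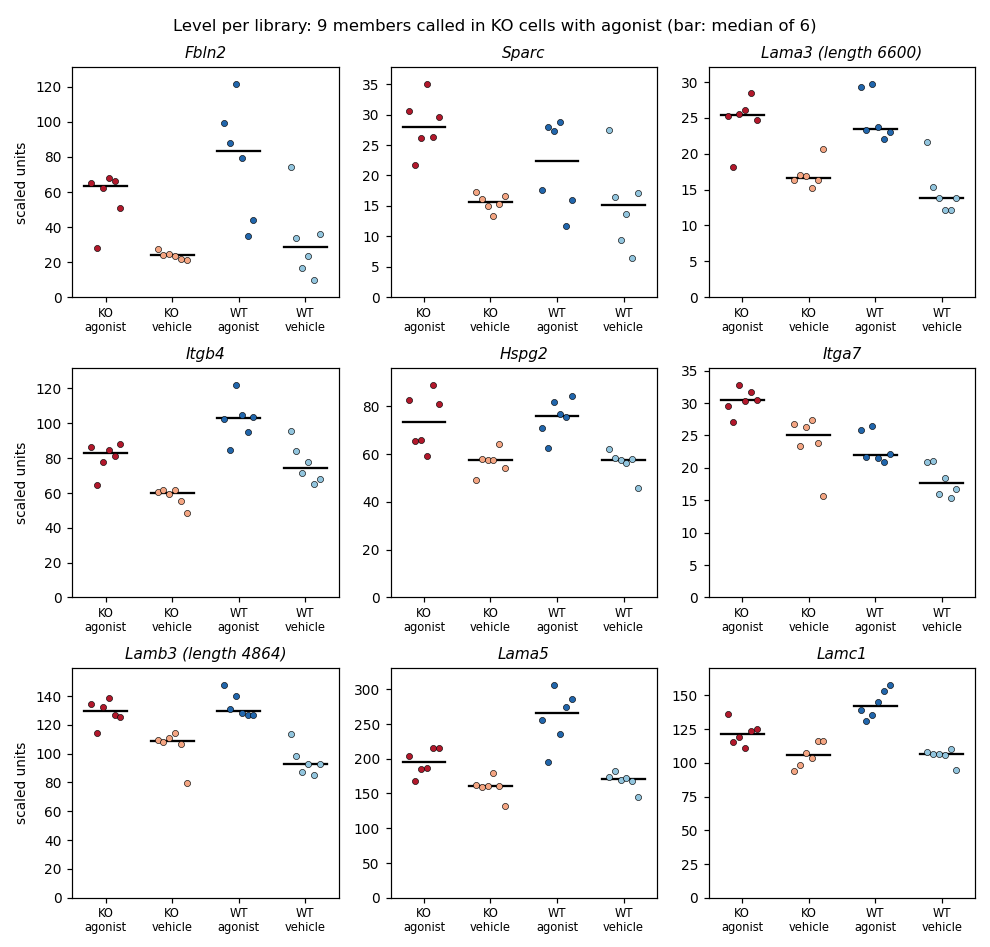
Level in scaled units (y axis) per library of the 9 members called in KO cells with agonist, in KO agonist, KO vehicle, WT agonist and WT vehicle libraries; points are single libraries and bars medians of 6. Agonist medians lie above vehicle medians in both genotypes, with wide spread for Fbln2 and Sparc.

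These KO calls depend on single libraries. Leaving out each library in turn gave 2 to 11 members called in KO cells, with 2 left without KO agonist replicate 1, 3 without KO agonist replicate 5, 4 without KO agonist replicate 4 or 6, and 5 without KO agonist replicate 3, KO vehicle replicate 3 or KO vehicle replicate 5. Calls over all 11557 genes moved with the same removals. They numbered 1075 with all libraries, 284 to 663 without 1 of the libraries just named, and 1851 without KO agonist replicate 2. The calls of Itgb4 and Lama3 held under every removal of 1 library, with adjusted p up to 0.0285 and 0.0419 (limma), and the other 7 did not. Without KO vehicle replicate 6 and KO agonist replicate 2 together, 10 rows were called higher, Fbln2 by 1.34 and Itgb4 by 0.48. The shorter Lamb3 row was called lower (-0.66, adjusted p = 0.0325, limma). Over all genes 1244 were then called higher and 1379 lower.

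The interaction, coded as the agonist effect in KO cells minus that in WT cells, asks which effects differed between the genotypes. It was called for 14 of the 37 rows, 12 with a smaller or more negative effect in KO cells and 2 with a higher one, while 41.1% of all genes were called, 19.6% higher and 21.5% lower. All 12 had risen in WT cells, a combination met by 19.9% of all genes. At 1.5-fold or more the difference was called lower in 9 members (7.8% of all genes) and higher in 0 (4.26%). Without KO vehicle replicate 6 and KO agonist replicate 2 the counts were 13 lower and 1 higher (2755 lower and 2567 higher over all 11557 genes). With equal totals they were 9 lower and 6 higher (1129 lower and 6417 higher of all 11568 genes then tested). With quantile scaling they were 9 lower and 3 higher (1993 lower and 3119 higher of 11558 genes).

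Thbs1 had 404, 464 and 563 units in KO agonist libraries, against 433, 504 and 560.1 in KO vehicle libraries, a log2 change of -0.08 (adjusted p = 0.515, limma) where WT cells had 2.85. The difference was -2.94 ± 0.11 (adjusted p = 2.26e-16, limma). Itgav had 70.2, 82.8 and 91.8 units in KO agonist libraries, against 67.4, 75.1 and 82.0 in KO vehicle libraries, and its effects differed by -1.56 ± 0.10 (adjusted p = 1.26e-12). Itgb6 had 79.9, 82.8 and 96.8 units in KO agonist libraries, against 88.7, 92.8 and 103 in KO vehicle libraries, with a difference of -1.57 ± 0.11 (adjusted p = 9.67e-12). In all 3 genes the KO groups overlapped while the WT groups were apart.

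Itga6 had 63.4, 70.0 and 74.9 units in KO agonist libraries, against 62.0, 64.6 and 71.3 in KO vehicle libraries (KO effect minus WT effect -1.09 ± 0.07, adjusted p = 7.09e-12, limma). Itgb1 had 504, 515 and 552 units in KO agonist libraries, against 501, 529 and 573 in KO vehicle libraries (KO effect minus WT effect -0.68 ± 0.06, adjusted p = 6.31e-10). The KO groups of both genes overlapped. The Itgb1 interaction was -0.40 with equal totals and -0.18 with quantile scaling (adjusted p = 0.0118, limma). Itga5 had 11.8, 15.7 and 16.6 units in KO agonist libraries, against 12.1, 13.9 and 15.6 in KO vehicle libraries (KO effect minus WT effect -0.82 ± 0.13, adjusted p = 1.45e-05). Col7a1 had 0.917, 1.47 and 1.75 units in KO agonist libraries, against 0.415, 1.02 and 1.27 in KO vehicle libraries (KO effect minus WT effect -1.23 ± 0.31, adjusted p = 0.00204). Itga3 had 143, 166 and 172 units in KO agonist libraries, against 121, 146 and 154 in KO vehicle libraries, with overlap. Col8a1 had 1.083, 3.44 and 7.46 units in KO agonist libraries, against 2.19, 2.49 and 4.03 in KO vehicle libraries. Its KO agonist range spanned the whole KO vehicle range, and its interaction was not called (-0.83 ± 0.50, adjusted p = 0.193).

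**Figure D3:**
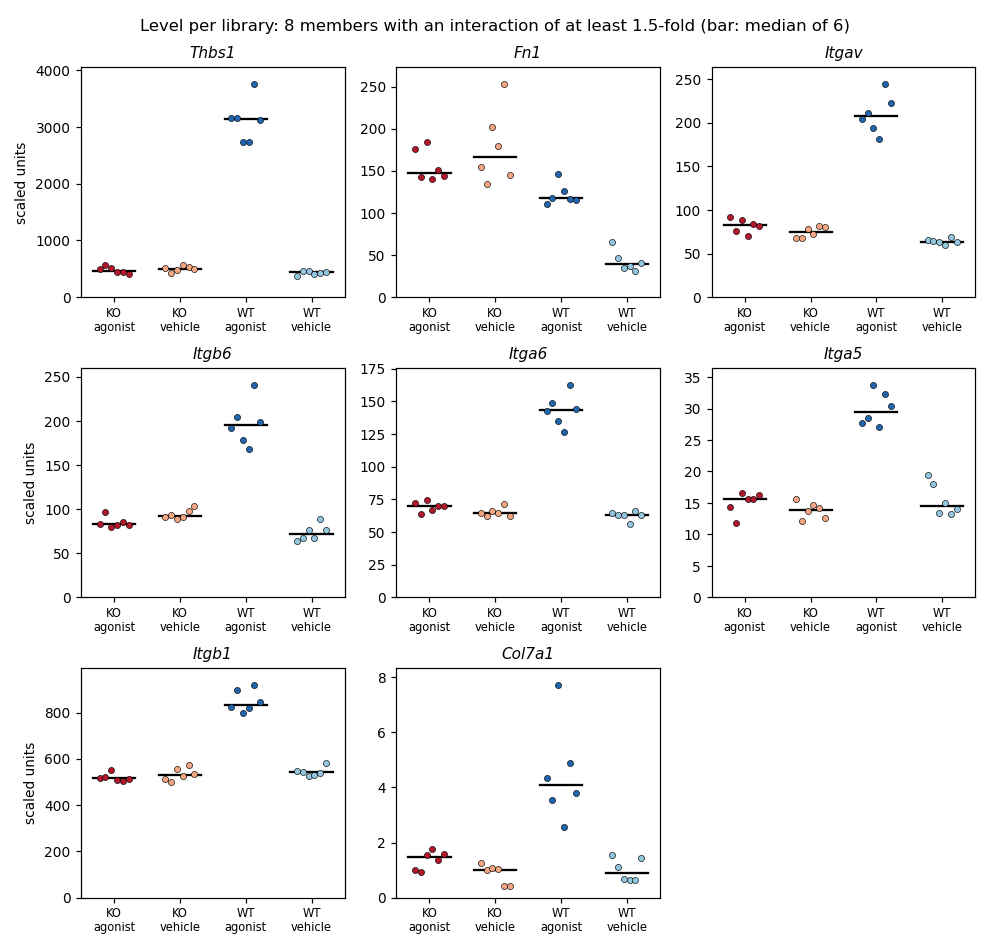
Level in scaled units (y axis) per library of 8 members with a called interaction of at least 1.5-fold, in KO agonist, KO vehicle, WT agonist and WT vehicle libraries; points are single libraries and bars medians of 6. WT agonist libraries stand above WT vehicle libraries in all 8 panels, KO groups overlap in all 8, and Fn1 is high in both KO groups.

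Fn1 differed in another way. It had 140.3, 148 and 185 units in KO agonist libraries, against 135, 167 and 253 in KO vehicle libraries, so it was already high in KO cells without agonist. Its KO change was -0.16 (adjusted p = 0.489, limma) and the difference from the WT change -1.70 ± 0.21 (adjusted p = 2.28e-07). Itgb5 and Itga2b, which fell in WT cells, had interactions of 0.43 ± 0.07 (adjusted p = 4.61e-05) and 0.31 ± 0.11 (adjusted p = 0.0218). With equal totals these were 0.70 and 0.57, and with quantile scaling 0.67 for Itgb5 and 0.23 for Itga2b, which was then not called (adjusted p = 0.0979, limma). Itga3 (-0.42, adjusted p = 0.00106), Lama5 (-0.31, adjusted p = 0.0486) and Lamc1 (-0.25, adjusted p = 0.0187) were called with the deposited scaling but neither with equal totals, where Lamc1 turned to 0.03, nor with quantile scaling (-0.15, -0.05 and -0.02). The Lama5 call was also lost when any 1 of 18 libraries was left out. Conversely, Lama3 was called without WT vehicle replicate 1 (-0.37, adjusted p = 0.0368, limma) and the longer Lamb3 row without KO vehicle replicate 6 (-0.27, adjusted p = 0.00897). The other 12 of the 24 genes that rose in WT cells had no interaction call, and 5 of these were not called in KO cells either, which does not show that the effects were alike.

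Under vehicle, KO cells already differed from WT cells in part of the matrix genes. 8 of the 37 rows were higher and 9 lower in KO cells, while 47.8% of all genes were called, 23.9% higher and 23.9% lower, a share near that of the members (17 of 37). At 1.5-fold or more, 3 members were higher (3.64% of all genes) and 3 lower (4.26%), and the groups did not overlap in 3 members higher (13.2% of all genes) and 6 lower (14.1%). The median log2 difference was -0.03 for the members and 0.00 for all genes. Since WT and KO cells are different lines, clonal differences and the loss of the receptor cannot be told apart here. Without KO vehicle replicate 6 and KO agonist replicate 2 the counts were 10 higher and 8 lower, against 3059 higher and 3043 lower over all genes.

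Fn1, with the KO vehicle values given above (135 to 253 units) against 31.3 to 65.6 in WT vehicle libraries, showed the largest difference, without overlap (log2 difference 2.06 ± 0.15, 4.16-fold, adjusted p = 2.13e-11, limma). Type IV collagen chains of the minor network were also higher. Col4a4 had 54.0, 57.7 and 64.9 units in KO vehicle libraries, against 29.6, 31.1 and 36.1 in WT vehicle libraries, and the groups were well apart (0.86 ± 0.07, adjusted p = 2.27e-10). Col4a3, its neighbour chain in the same trimer, had 36.5, 38.5 and 42.4 units in KO vehicle libraries, against 24.8, 28.4 and 33.3 in WT vehicle libraries (0.45 ± 0.09, adjusted p = 0.000161). The trimer's other chain, Col4a5, was not called (-0.15, adjusted p = 0.151). The shorter Lamb3 row had 1.47, 2.64 and 3.21 units in KO vehicle libraries, against 0.490, 0.631 and 1.66 in WT vehicle libraries (1.19 ± 0.22, adjusted p = 6.94e-05), with overlap. Under agonist that shorter row had 0.917, 1.49 and 2.88 units in KO agonist libraries, against 0.297, 0.669 and 1.06 in WT agonist libraries. The longer row was not called (0.14, adjusted p = 0.136) with all libraries, but was without KO vehicle replicate 6 (0.22, adjusted p = 0.00379, limma) or WT vehicle replicate 1 (0.19, adjusted p = 0.0352). Lama3 likewise was called without WT vehicle replicate 1 (0.34, adjusted p = 0.00805) and not with it (0.22, adjusted p = 0.122). Itga7 (0.38), Itgb6 (0.37), Thbs1 (0.22) and Itgav (0.22) were higher by less, and the Thbs1 call was lost without KO vehicle replicate 4 or 5 or WT vehicle replicate 1 or 4 (adjusted p up to 0.0669, limma).

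Among the genes lower in KO cells, Col27a1 (length 4810), a fibrillar collagen gene, had 0.102, 0.249 and 0.387 units in KO vehicle libraries, against 0.888, 1.52 and 2.28 in WT vehicle libraries. The groups did not overlap, at 5 to 28 reads per KO library (log2 difference -1.40 ± 0.23, adjusted p = 1.76e-05, limma). Under agonist it had 0.232, 0.543 and 0.691 units in KO agonist libraries, against 0.745, 1.64 and 3.00 in WT agonist libraries. Itgb8 was lower by 0.82 on the log2 scale in KO cells, with 0.650, 0.801 and 1.05 units in KO vehicle libraries, against 1.63, 1.77 and 2.15 in WT vehicle libraries. Col8a2 (-0.63), Itga2b (-0.46), Itgb4 (-0.40), Col18a1 (-0.35), Col20a1 (-0.30) and Lamb1 (-0.28) were also lower, Col20a1 not with quantile scaling (adjusted p = 0.0579). Thus integrin chains were called in both directions, Itga7, Itgb6 and Itgav higher and Itgb4, Itgb8 and Itga2b lower.

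Under agonist, 6 of the 37 rows were higher and 18 lower in KO than in WT cells, while 64.1% of all genes were called, 32.0% higher and 32.1% lower. This comparison shares its libraries with the agonist comparisons above, so its values follow in part from theirs. At 1.5-fold or more, 2 members were higher (7.77% of all genes) and 10 lower (10.3%), and the groups did not overlap in 3 members higher (21.7%) and 14 lower (24.6%). With equal totals the counts of calls were 9 higher and 10 lower (7281 higher and 1724 lower of all 11568 genes). With quantile scaling they were 6 higher and 15 lower (4532 higher and 2989 lower of 11558 genes). Thbs1 (-2.71 ± 0.08, adjusted p = 1.53e-19, limma), Col7a1 (-1.37 ± 0.22, adjusted p = 5.16e-06), Itgav (-1.35 ± 0.07, adjusted p = 5.2e-15) and Itgb6 (-1.20 ± 0.08, adjusted p = 5.29e-13) were among those furthest below the WT level. Col4a4 was higher (0.92 ± 0.07, adjusted p = 1.42e-11), as under vehicle. Fn1, at 140.3 to 185 units in KO agonist and 111 to 146 in WT agonist libraries, differed by 0.35 (adjusted p = 0.0368; 0.64 with equal totals and 0.56 with quantile scaling), a call lost without KO agonist replicate 1 or 3 or WT agonist replicate 1, 2, 5 or 6.

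Ratios of the levels of chains that assemble together describe the balance of the transcripts in each library, with no test. Itgav over Itgb5 had a median of 0.366 in KO agonist, 0.316 in KO vehicle, 1.30 in WT agonist and 0.290 in WT vehicle libraries. The WT agonist libraries, at 1.02 to 1.51, lay above all others, since Itgav was higher and Itgb5 lower there. Itgav over Itgb6 stayed nearer to 1, at medians of 0.985, 0.782, 1.07 and 0.862 in KO agonist, KO vehicle, WT agonist and WT vehicle libraries. Lama5 over Lamc1 had overlapping ranges in all groups, with medians of 1.62 in KO agonist, 1.56 in KO vehicle, 1.80 in WT agonist and 1.60 in WT vehicle libraries. Itga6 over Itgb4 was 0.848 in KO agonist, 1.09 in KO vehicle, 1.39 in WT agonist and 0.820 in WT vehicle libraries. Col4a4 over Col4a3 was 1.46 and 1.52 in KO agonist and KO vehicle libraries, against 0.972 and 1.14 in WT agonist and WT vehicle libraries. Col4a1 over Col4a2, which share a promoter region, had medians of 1.01 in KO agonist, 0.945 in KO vehicle, 0.989 in WT agonist and 0.887 in WT vehicle libraries.

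**Figure D4:**
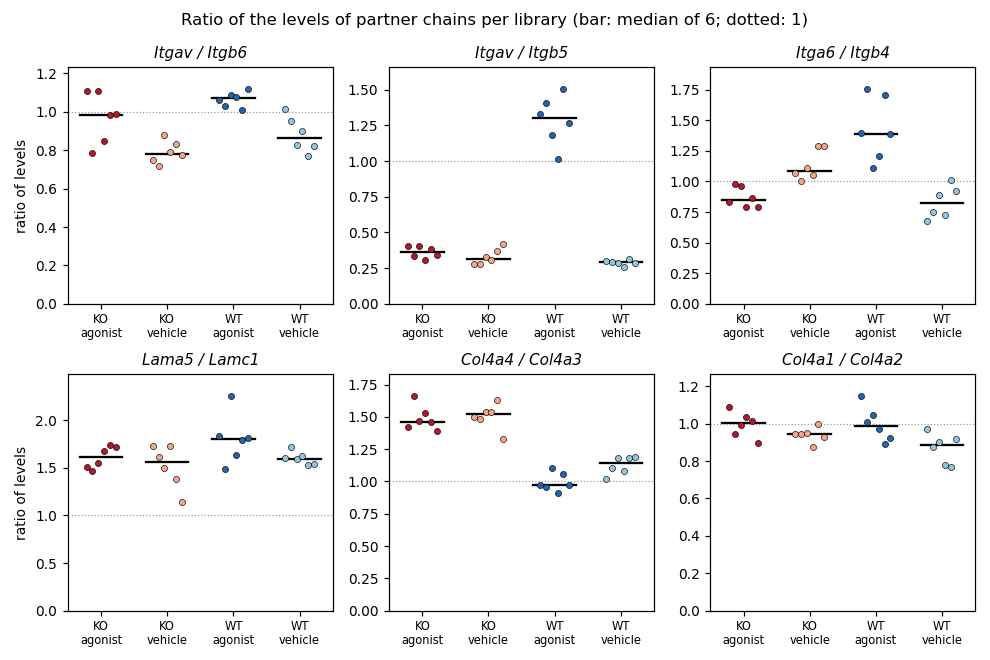
Ratio of the levels (y axis, no unit) of 6 pairs of partner chains per library in KO agonist, KO vehicle, WT agonist and WT vehicle libraries; points are single libraries, bars medians of 6 and the dotted line a ratio of 1. WT agonist libraries stand apart for Itgav over Itgb5, and both KO groups stand above both WT groups for Col4a4 over Col4a3.

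Summed over the 44 rows, the members reached 3703, 3782 and 3942 units in KO agonist libraries, 3261, 3665 and 3865 in KO vehicle, 7282, 7886 and 8925 in WT agonist and 3530, 3549 and 3676 in WT vehicle libraries. Thbs1 alone made up a median of 12.1% of the sum in KO agonist libraries, against 13.9% in KO vehicle libraries, and 39.2% in WT agonist libraries, against 12.3% in WT vehicle libraries. Without Thbs1 the median sum was 4824 units in WT agonist libraries and 3118 in WT vehicle libraries.

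Other genes of cell adhesion and matrix were read from lists, each described by counts of called genes beside the 9.3% (KO) and 57.2% (WT) of all genes called with agonist. Of 12 matrix receptors other than integrins that were tested, 2 rose with agonist in KO cells, and 5 rose and 1 fell in WT cells. The heparan sulfate proteoglycan Sdc4 rose most surely in WT cells (log2 change 1.41 ± 0.07, adjusted p = 5.3e-15, limma), followed by Gpc1 (0.67) and the hyaluronan receptor Cd44 (0.91). Of 10 matricellular genes, 1 rose in KO cells, and 6 rose in WT cells; Ccn1 (3.66 ± 0.11, adjusted p = 2.04e-19), Ccn2 (2.56 ± 0.12, adjusted p = 3.31e-15) and Spp1 (1.49 ± 0.26, adjusted p = 2.69e-05), all integrin ligands, were called in WT cells. Of 18 remodelling enzymes and inhibitors, 2 rose in KO cells, and 9 rose and 3 fell in WT cells, with Adamts1 (3.55), Mmp13 (1.81) and Adamts5 (1.24), which cleave matrix proteins, among those that rose in WT.

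Of 25 genes of integrin activation and inhibition, 2 rose and 3 fell with agonist in KO cells, and 10 rose and 5 fell in WT cells. Plec, which ties integrin beta 4 to keratin filaments, rose in both (0.34 ± 0.10 in KO cells, adjusted p = 0.0354, and 1.05 ± 0.10 in WT cells, adjusted p = 1.78e-09, limma). The kindlin gene Fermt2, an integrin activator, fell in KO cells (-0.21 ± 0.06, adjusted p = 0.037) and rose in WT cells (1.00 ± 0.06, adjusted p = 6.08e-13). Rap1b, a small GTPase upstream of integrin activation, rose in WT cells (0.73). Of 22 genes of collagen synthesis and folding, 1 rose and 1 fell in KO cells, and 6 rose and 2 fell in WT cells. Of 10 basement membrane partners, 3 rose in KO cells, and 2 rose and 1 fell in WT cells. Those that rose in WT cells were Tinagl1 (0.36 ± 0.06, adjusted p = 7.19e-06, limma) and Smoc1 (0.33 ± 0.06, adjusted p = 6.74e-05). The nephronectin gene Npnt, a ligand of integrin alpha 8 beta 1 in kidney development, fell in WT cells (-0.34 ± 0.09, adjusted p = 0.00159).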

How the data were processed

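Poly(A) RNA-seq of 24 libraries was read from 1 table of all samples, deposited as a signal per gene length in 12224 rows, with an "other" column of gene length whose unit is not stated. The submitters' processing notes name GRCm39, STAR 2.7.8a, DESeq2 and DESeq without saying what each did. The deposited signal times gene length gave whole reads per library factor for at least 99.93% of values within 0.06, and 29.8 to 51.9 M reads per library, which sets counting precision. Levels are the signal times 92.094 (scaled units). log2(scaled units + 0.5) in 11557 rows (mean of 1 unit or more) was fitted with limma 3.58.1 (R 4.3.3): 1 term per group over all libraries, trend and robust moderation, two-sided contrasts and Benjamini-Hochberg adjustment over all rows, called below 0.05. Fold changes are on that log2 scale, which understates changes of low genes. The code was tested on simulated data.

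Groups came from sample titles. Values in every group are given for members called in WT agonist against vehicle at 1.5-fold or more, called in KO agonist against vehicle, or called between genotypes under vehicle with a log2 difference of at least 1; other members shown with their values were chosen after those were seen. Up to 3 called genes by smallest adjusted p in WT cells were allowed from each pathway list. The values of 1 member are not reported here, though the counts and sums include it. The members, lists and tests were chosen with earlier results of these data known. Promoters came from RefSeq GRCm38.p6 and no coordinate was converted. Alternatives covered pseudocount, filter, scaling (equal totals, quantile or median ratio), moderation, replicate block, voom and leaving out libraries.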

Additional observations from a re-analysis of the deposited data

Results flagged for a closer look

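The agonist effect differed between genotypes for the 13 members given here by limma's interaction term (effect in KO cells minus effect in WT cells, log2 scale). That term was called for 37.8% of the members tested and 41.1% of all genes. The differences were -2.94 for Thbs1, -1.70 for Fn1, -1.57 for Itgb6, -1.56 for Itgav, -1.23 for Col7a1, -1.09 for Itga6, -0.82 for Itga5, -0.68 for Itgb1, -0.42 for Itga3, -0.31 for Lama5 and -0.25 for Lamc1. They were 0.43 for Itgb5 and 0.31 for Itga2b. Itga3, Lama5 and Lamc1 were not called with equal totals or with quantile scaling, and Itga2b was not called with quantile scaling. The Lama5 call was also lost when any 1 of 18 libraries was left out.

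Single libraries stood far from the other 5 of their group in 14 of 84 sets of 6 values screened. For independent sets of normal values, chance gives about 1 in 20. The screened values were not logged and the sets share the same libraries, so that rate is only a rough guide. In KO agonist replicate 2 these were the shorter Lamb3 row (2.88 units), Lama3 (18.2) and Itgb6 (96.8), and in KO agonist replicate 3 Itgb1 (552). In KO vehicle replicate 6 they were the longer Lamb3 row (79.4), Itga7 (15.7) and Lama3 (20.7), and in KO vehicle replicate 1 Col8a1 (4.03). In WT agonist replicate 3 it was Itga3 (256). Among WT vehicle libraries, Lama3 stood out in replicate 1 (21.7), Itga6 in replicate 4 (56.4), the shorter Lamb3 row in replicate 5 (1.66), and Lamc1 (94.4) and Hspg2 (45.9) in replicate 6.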

How the results depend on the processing

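Calls with a minimum of 1.5-fold numbered 2 for agonist in KO cells, 14 for agonist in WT cells, 9 for the interaction, 6 for KO against WT under vehicle and 12 under agonist, fewer than without it by construction. Leaving out single libraries gave 2 to 11 calls for agonist in KO cells, 23 to 28 in WT cells and 13 to 15 for the interaction. It gave 15 to 18 for KO against WT under vehicle and 23 to 26 under agonist. Over all 11557 genes the calls were, in the same order, 284 to 1851, 6141 to 7494, 4452 to 5357, 5149 to 6065 and 7124 to 8109. With equal totals, 4 values of members given in every group changed sign among those called with either of the 2 scalings. One was the Lamc1 interaction, to 0.03 (adjusted p = 0.776, limma). The others were KO against WT under agonist for Lamc1, to 0.05 (adjusted p = 0.481, limma), the longer Lamb3 row, to 0.23 (0.0109), and Hspg2, to 0.25 (0.0269). Values called with neither scaling changed sign as well. Among these were the interactions of the longer Lamb3 row (-0.19 to 0.08) and Lama3 (-0.25 to 0.02). Equal totals also moved the median of all genes. Fitting a replicate block gave 9 calls for agonist in KO cells, 25 in WT cells, 13 for the interaction, 17 under vehicle and 24 under agonist. Over all 11557 genes the calls with that block were, in the same order, 1122, 6593, 4732, 5513 and 7404. Same-numbered libraries of different groups correlated at -0.315 to 0.488 after group means were removed. Differently numbered libraries were not compared, so these values cannot tell whether the numbers pair samples. voom on recovered reads, added after seeing the data, gave 9 calls for agonist in KO cells, 25 in WT cells, 14 for the interaction, 17 under vehicle and 24 under agonist. Its calls over all 11557 genes were, in that order, 1126, 6574, 4732, 5584 and 7360. A filter on a mean of at least 5 units left fewer members tested and 5 rather than 9 lower in KO cells under vehicle. Over all genes, 2445 of 10019 were then lower there, against 2763 of 11557 with the filter at 1 unit. The planned edgeR and DESeq2 fits were not run. Members at a few reads per library, such as Col27a1 and the shorter Lamb3 row, are limited by depth.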
